A study of Mus musculus with 4 samples.

Results

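The genes described here are 9 genes of megakaryocytes, the marrow cells that shed blood platelets, read in BCR-ABL-expressing leukemia stem cells of mice with and without Hif1a. They were chosen by name, with earlier results of these data known: Pf4, Ppbp, Itga2b, Gp9, Gp5, Gp1ba, Vwf, Treml1 and Rab27b. Of these, 8 were measured among 19938 genes, each by 1 probe set; Gp1ba, without a probe set of its own in the annotation, was not analysed here. A probe set is the group of array probes that reads 1 transcript, and its value is a log2 expression level after RMA, a method that corrects the background, makes the arrays alike in distribution and summarises the probes. A difference of 1 on this scale is a 2-fold difference. The tests are those of limma, a linear model that pools the spread over all genes.

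The leukemia stem cells arose in mice given a form of chronic myeloid leukemia. Marrow from donors that had received 5-fluorouracil was infected with a retrovirus carrying BCR-ABL, the kinase fusion of this leukemia, together with GFP, and was given to C57BL/6 (B6) recipients. At 14 days after transplantation, GFP+ marrow cells without lineage markers, positive for c-Kit and for Sca-1, were sorted. The 2 WT arrays carried cells of B6 donor origin and the 2 Hif1a-/- arrays cells of Hif1a-/- donor origin; both groups share the virus, the drug and the B6 recipients, and all mice are labelled 8 weeks and strain C57BL/6 (B6). The titles call the replicates biological. The labels do not say how Hif1a was deleted, which exons were lost, whether animals were pooled, or whether replicates came from separate animals. The p-values therefore reflect no more than the spread of these samples, whose source is not further described. Hif1a itself read 11.34 and 11.50 on the WT arrays and 11.25 and 11.39 on the Hif1a-/- arrays, so its probe set does not separate the genotypes.

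Megakaryocytes grow from stem and progenitor cells, enlarge by repeated DNA replication without division, and fill with granules before they release platelets. The GPIb-IX-V complex on the platelet surface catches von Willebrand factor at a wound, the integrin of Itga2b and Itgb3 then binds fibrinogen, and the granules release chemokines and adhesive proteins. Part of this program is also active in blood stem cells: Vwf and Itga2b are used to mark stem cells that favour platelet production. In bulk RNA of sorted cells, fewer cells of a type and less RNA per cell cannot be told apart.

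Promoter letters are shown for 4 members, chosen because Gp5 and Treml1 read higher on both Hif1a-/- arrays than on both WT arrays and because Pf4 and Gp9 differed most between replicates. They are the 250 bases before a RefSeq transcript start on build GRCm38.p6, written 5′ to 3′ on the gene's strand. Capitals mark every match, on either strand, to the words given here. The GATA words were AGATAA as well as AGATAG, and further TGATAA as well as TGATAG. The ETS words were AGGAAG as well as CGGAAG, and the HIF words ACGTG as well as GCGTG. GATA and ETS factors are known regulators of megakaryocyte genes, and HIF-1 binds the last pair of words; a match is a description of the letters and not a binding site.
Gp5: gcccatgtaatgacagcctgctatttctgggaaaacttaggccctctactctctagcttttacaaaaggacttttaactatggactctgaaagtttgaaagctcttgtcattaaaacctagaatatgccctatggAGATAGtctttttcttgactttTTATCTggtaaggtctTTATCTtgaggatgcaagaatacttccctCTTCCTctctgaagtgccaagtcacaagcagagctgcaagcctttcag
Treml1: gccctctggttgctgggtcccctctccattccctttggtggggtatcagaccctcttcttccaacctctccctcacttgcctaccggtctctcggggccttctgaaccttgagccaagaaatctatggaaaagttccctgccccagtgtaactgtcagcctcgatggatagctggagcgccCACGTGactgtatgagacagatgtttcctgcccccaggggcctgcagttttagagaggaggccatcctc
Pf4: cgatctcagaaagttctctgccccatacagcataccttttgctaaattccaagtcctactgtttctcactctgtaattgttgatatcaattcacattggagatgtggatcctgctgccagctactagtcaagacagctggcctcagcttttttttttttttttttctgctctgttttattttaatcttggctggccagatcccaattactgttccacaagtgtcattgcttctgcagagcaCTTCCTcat
Gp9: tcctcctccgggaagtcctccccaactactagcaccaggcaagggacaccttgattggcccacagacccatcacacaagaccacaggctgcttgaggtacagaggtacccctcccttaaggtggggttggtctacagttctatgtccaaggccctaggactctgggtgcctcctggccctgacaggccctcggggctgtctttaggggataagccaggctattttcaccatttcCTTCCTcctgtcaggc
The windows lie at chr16:30310782-30311031 on the minus strand for Gp5, and on the plus strand at chr17:48359666-48359915 for Treml1, chr5:90772185-90772434 for Pf4 and chr6:87777820-87778069 for Gp9. Gp5 held 3 GATA matches, whose first bases lie 115, 93 and 77 bases before the start, and 1 ETS match. Pf4 and Gp9 each held 1 ETS match, beginning 9 and 16 bases before the start. Treml1 held overlapping HIF matches on opposite strands, in the palindrome CACGTG, 69 and 68 bases before the start; that palindrome is also the E-box of other factors. RefSeq promoters were found for 7 of the 9 genes. Among these 7, 2 held a GATA word, 5 an ETS word and 1 a HIF word, against 26.5%, 39.2% and 38.6% of 32851 mouse promoter windows of the same length.

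The arrays differed in ways that the genotype does not account for. WT replicate 1 stood apart, with correlations of 0.9806 to 0.9888 to the other arrays, where the Hif1a-/- arrays correlated at 0.9945. Although lineage markers were sorted against, the neutrophil antigen gene Ly6g read 13.10 on WT replicate 1 against 10.64 on WT replicate 2. On the Hif1a-/- arrays Ly6g read 11.74 and 11.64. Some other neutrophil genes went the opposite way between the WT arrays, among them Elane with 13.43 and 13.77 and Mpo with 12.97 and 13.67. Kit, the sort's c-Kit, read 10.32 on WT replicate 1 against 11.07 on WT replicate 2 and 10.95 and 10.61 on the Hif1a-/- arrays, and Cd34, a progenitor surface gene, read 10.31 and 12.29 on the WT arrays and 10.70 and 11.70 on the Hif1a-/- arrays. Each member's difference is therefore given with and without the arrays that move it. The members themselves were above the dim end of the array: each read higher, on all 4 arrays, than the 95th percentile of 1194 olfactory and vomeronasal receptor genes, which lay between 7.73 and 7.93.

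The comparison of Hif1a-/- with WT cells asks which genes differ in leukemia stem cells without Hif1a. None of the 8 measured members passed limma's test adjusted over all genes, where 0 of 19938 genes passed (0% called). Gp5 read higher in Hif1a-/- cells in all pairs of arrays, with an unadjusted p under 0.05, and Treml1 and Vwf read slightly higher without overlap. Pf4 and Gp9 had higher means with groups that overlapped, Itga2b and Ppbp were nearly level, and Rab27b had a lower mean. In all, 5 members had a higher and 3 a lower mean, with a median difference of 0.16, beside 61.4% of all genes with a higher mean and a median of 0.03. The Hif1a-/- pair lay wholly above the WT pair for 3 of 8 members and wholly below it for 0, where 15.7% of all genes lay above and 9.05% below. Only Gp5 had an unadjusted p under 0.05 and a higher mean, a rule that 0.697% of all genes met, and 0 had one with a lower mean, which 0.978% met; 1.68% of all genes met it in either direction. The plot of each member's values by array shows the overlap gene by gene.

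**Figure D1:**
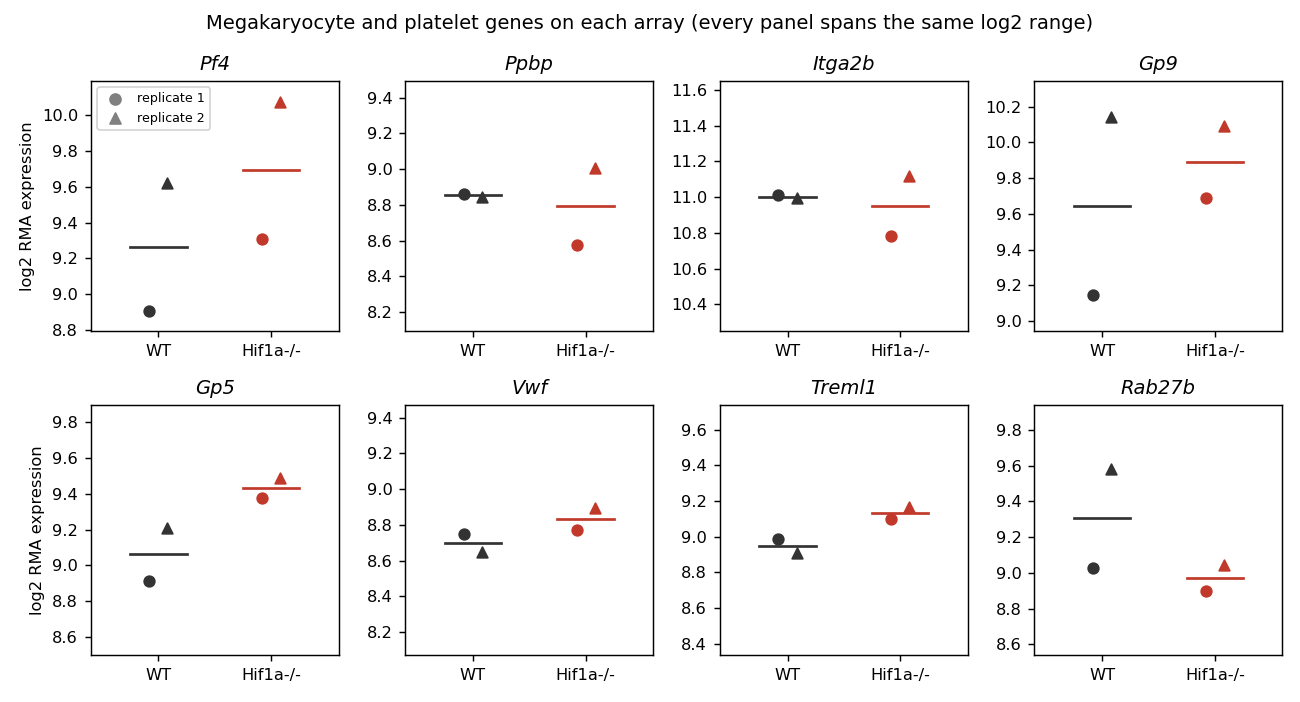
Log2 RMA expression of the 8 measured genes on each array, WT in black and Hif1a-/- in red, circles for replicate 1, triangles for replicate 2 and lines for the mean of 2 arrays; every panel spans the same log2 range. Gp5, Treml1 and Vwf have both Hif1a-/- arrays above both WT arrays, and Pf4, Gp9 and Rab27b show wide gaps between the WT arrays.

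Pf4 and Ppbp encode the chemokines packed in platelet alpha granules, platelet factor 4 and pro-platelet basic protein. Pf4 read 8.91 and 9.62 on the WT arrays and 9.31 and 10.08 on the Hif1a-/- arrays. The Hif1a-/- arrays held the highest and the third highest place, so the groups overlapped, and replicate 2 lay well above replicate 1 in both genotypes, by 0.72 and 0.77. The mean of Pf4 was 9.69 ± 0.54 (SD, n = 2) without Hif1a and 9.26 ± 0.51 (SD, n = 2) with it, a difference of 0.43 ± 0.32 (SE) whose 95% interval ran from -0.33 to 1.19 (unadjusted limma p 0.220). That difference was 0.071 without WT replicate 1 and 0.044 without Hif1a-/- replicate 2, and 0.79 and 0.81 without the other arrays. A gap as wide as that of Pf4 between the Hif1a-/- arrays was met by 0.381% of all genes, and one as wide as that between its WT arrays by 4.76%.

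Ppbp read 8.86 and 8.84 on the WT arrays and 8.58 and 9.01 on the Hif1a-/- arrays. The Hif1a-/- arrays lay on either side of the WT pair, and the difference was -0.06, with a 95% interval from -0.47 to 0.35 (unadjusted limma p 0.735). It was 0.16 without Hif1a-/- replicate 1 and -0.27 without Hif1a-/- replicate 2. The 2 chemokine genes are neighbours in the genome. Taken as replicate 2 minus replicate 1, the WT arrays differed by 0.72 for Pf4 and by -0.02 for Ppbp, while the Hif1a-/- arrays differed the same way in both genes, by 0.77 and 0.43.

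Itga2b encodes the alpha subunit of the fibrinogen receptor, the antigen CD41, which appears early in the lineage. It read 11.01 and 10.99 on the WT arrays and 10.78 and 11.12 on the Hif1a-/- arrays, again on either side of the WT pair. The difference was -0.05, with a 95% interval from -0.42 to 0.31 (unadjusted limma p 0.740), and 0.12 without Hif1a-/- replicate 1. Its partner Itgb3, the beta subunit, which other cells pair with other alpha chains, read 10.80 and 10.26 on the WT arrays and 9.98 and 10.38 on the Hif1a-/- arrays. The groups of Itgb3 overlapped, with a difference of -0.35 (unadjusted limma p 0.163), or -0.080 without WT replicate 1.

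Gp9 and Gp5 encode leucine-rich glycoproteins of the receptor for von Willebrand factor; Gp9 is needed for the complex to reach the surface, and Gp5 is associated with it and is cut by thrombin. Gp5 read 8.91 and 9.21 on the WT arrays and 9.38 and 9.49 on the Hif1a-/- arrays. The groups did not overlap, and the nearest pair was 9.21 and 9.38. The mean was 9.43 ± 0.08 (SD, n = 2) without Hif1a and 9.06 ± 0.21 (SD, n = 2) with it, 1.29-fold apart. The log2 difference was 0.37 ± 0.15 (SE), and its 95% interval ran from 0.015 to 0.73. The unadjusted limma p was 0.0434 and the adjusted p 0.999. The difference was 0.22 without WT replicate 1, with an unadjusted p of 0.115, and 0.52 without WT replicate 2. It was 0.32 without Hif1a-/- replicate 2 and 0.43 without Hif1a-/- replicate 1, with unadjusted p of 0.225 and 0.112. With all arrays kept, the unadjusted p of Gp5 was at or over 0.05 under 7 of 9 other settings of the processing, from 0.0268 after a second quantile normalization to 0.104 with a floor on low values. Among the printed windows, that of Gp5 alone holds GATA words. Gp1ba, whose window is not printed, also holds 3 GATA matches. A GATA word was found in 2 of 7 member promoters and in 26.5% of all windows.

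Gp9 read 9.14 and 10.14 on the WT arrays and 9.69 and 10.09 on the Hif1a-/- arrays. Both Hif1a-/- values lay between the WT values, so the gap of 1.00 between the WT arrays exceeded the difference of 0.25 ± 0.32 (SE) between genotypes (95% interval from -0.53 to 1.02, unadjusted limma p 0.467). Only 1.84% of all genes had a WT gap as wide. The sign turned to -0.25 without WT replicate 1, and the difference was 0.75 without WT replicate 2 and 0.047 without Hif1a-/- replicate 2. The partners of this complex, Gp1ba and Gp1bb, and the collagen receptor gene Gp6 were not analysed here.

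**Figure D2:**
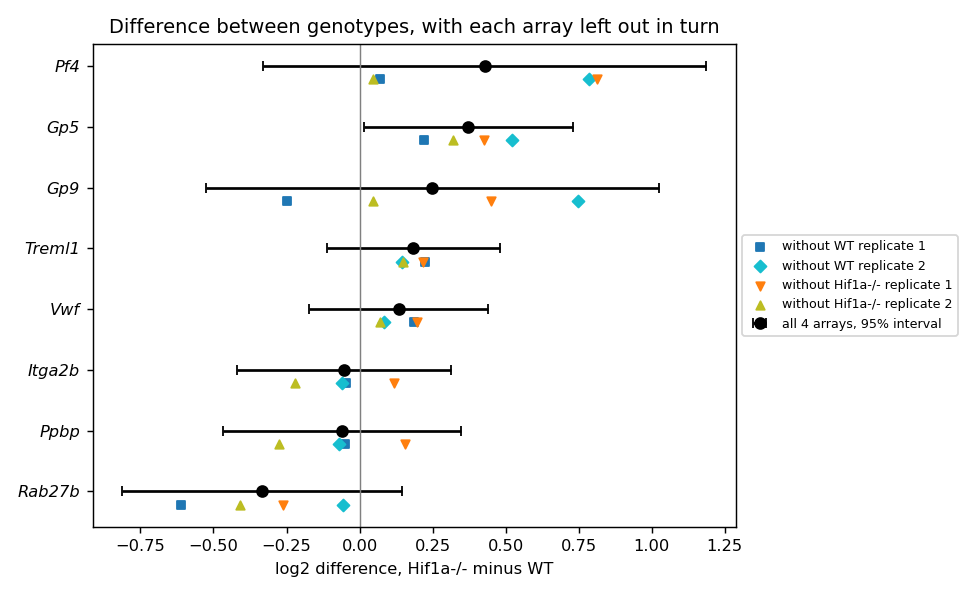
Log2 difference of Hif1a-/- minus WT for each measured gene, with the 95% interval from all 4 arrays in black and the value without each array in colour below it. The interval of Gp5 alone lies above 0, from 0.015 to 0.73, and the coloured points of Gp9, Itga2b and Ppbp lie on both sides of 0.

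Vwf, Treml1 and Rab27b encode a granule cargo, a granule membrane receptor and a GTPase of granule release. Vwf, whose product tethers platelets to collagen, read 8.75 and 8.65 on the WT arrays and 8.77 and 8.90 on the Hif1a-/- arrays. The groups were apart by 0.02 at their nearest arrays and overlapped after a second quantile normalization, and the difference was 0.13, with a 95% interval from -0.17 to 0.44 (unadjusted limma p 0.330). It ranged from 0.071 to 0.20 when each array was left out in turn, the lowest without Hif1a-/- replicate 2. Treml1, a receptor of the TREM family held in alpha granules and brought to the surface on activation, read 8.99 and 8.91 on the WT arrays and 9.10 and 9.17 on the Hif1a-/- arrays. The groups did not overlap, and the difference was 0.18 ± 0.12 (SE), with -0.11 to 0.48 as its 95% interval (unadjusted limma p 0.180). Treml1 moved least with any single array, between 0.14 and 0.22.

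Rab27b, a GTPase of dense granule secretion that also works in mast cells, read 9.03 and 9.58 on the WT arrays and 8.90 and 9.05 on the Hif1a-/- arrays. Hif1a-/- replicate 2 lay just above WT replicate 1, so the groups overlapped by 0.02, and WT replicate 2 was the highest. Its difference was -0.33 ± 0.20 (SE), with a 95% interval from -0.81 to 0.14 (unadjusted limma p 0.140), and it was -0.058 without WT replicate 2 and -0.61 without WT replicate 1. After a second quantile normalization, or with array medians centred, the groups of Rab27b no longer overlapped and it was the 1 member lower in this way. Rab27a, its close relative, read 11.18 and 10.999 on the WT arrays and 10.91 and 10.79 on the Hif1a-/- arrays, a difference of -0.24 without overlap (unadjusted limma p 0.119). Rab38, another GTPase of granule formation, differed by 0.05, by -0.40 without WT replicate 1 and by 0.49 without WT replicate 2.

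With 1 WT array left out, some members passed the adjusted threshold in fits whose only measured spread is that between the Hif1a-/- arrays, the lone WT array being assumed to vary alike. Without WT replicate 2, Pf4, Gp5 and Gp9 were higher with adjusted limma p of 0.0216, 0.0216 and 0.00551, where 7.23% of all genes were called. Without WT replicate 1, Rab27b was lower with an adjusted limma p of 0.0209, where 1.75% of all genes were called, and Gp5, Pf4 and Gp9 were not, at 0.501, 0.907 and 0.514. Which members were called changed with the WT array kept. Without either Hif1a-/- array 0 members were called, where 0.0100% of all genes were.

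**Figure D3:**
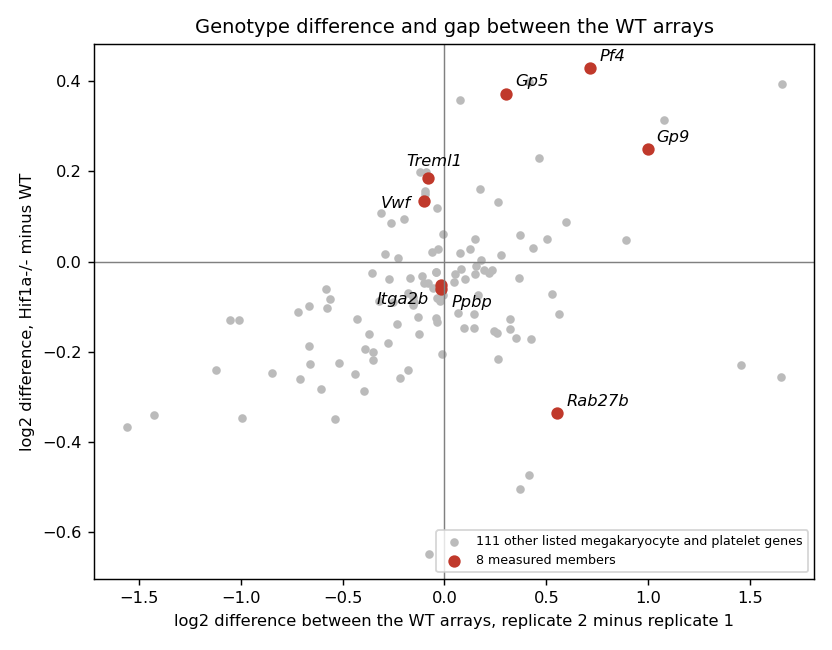
Log2 difference of Hif1a-/- minus WT on the vertical axis against the difference between the WT arrays, replicate 2 minus replicate 1, on the horizontal axis, for the 8 measured members in red and 111 other listed genes in grey; both axes use the WT arrays. Gp9, Pf4 and Rab27b lie at WT gaps of 1.00, 0.72 and 0.55, while Vwf, Treml1, Itga2b and Ppbp lie near 0 on that axis.

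The members differed in how far the arrays of a genotype lay apart. Gp9, Pf4 and Rab27b had WT gaps of 1.00, 0.72 and 0.55, which 1.84%, 4.76% and 9.33% of all genes reached. Pf4 and Gp9 also had Hif1a-/- gaps of 0.77 and 0.40, which 0.381% and 2.97% of all genes reached, and Rab27b one of 0.15. Gp5 had gaps of 0.30 between the WT arrays and 0.11 between the Hif1a-/- arrays. Itga2b and Ppbp had WT gaps of only -0.01 and -0.02 but Hif1a-/- gaps of 0.34 and 0.43, which 5.28% and 2.40% of all genes reached. Treml1 and Vwf stayed within 0.13 on both sides. Over the 4 arrays, centred on each gene's mean, the closest profile to Itga2b among the listed genes was that of Ppbp, with a root mean square difference of 0.032 log2 units, and the closest to Pf4 was that of Gp9, at 0.19. Treml1 was closest to Mpig6b, an inhibitory platelet receptor gene, at 0.011, Vwf to Fgg, a fibrinogen chain gene, at 0.015, and Gp5 to Zfpm1, the cofactor of GATA1, at 0.084. Rab27b was closest to Rasgrp2, an activator of Rap1 in platelets, at 0.11, and Gp9 to Rab38, at 0.16. These are descriptions over 4 arrays and 118 genes compared.

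Beyond the members, 111 of 121 listed megakaryocyte and platelet genes were measured, and most had a lower mean in Hif1a-/- cells. Of the 111, 30 had a higher and 81 a lower mean, with a median difference of -0.08 against 0.03 over all genes. Without WT replicate 1, 66 of the 111 had a lower mean and the median was -0.03, against 0.03 over all genes. The Hif1a-/- pair lay wholly above the WT pair for 6 of them, 5.41%, and wholly below it for 17, 15.3%, beside the 15.7% and 9.05% of all genes. Limma called 0 of the 111 after adjustment over all genes. At an unadjusted p under 0.05 there were 3, Gfi1b with a higher mean and Erg and Cd36 with lower means. The median gap between arrays was 0.26 for the WT pair and 0.13 for the Hif1a-/- pair over these genes. Over all genes it was 0.19 and 0.11, so the WT pair lay further apart there too.

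All 15 transcription factors of the lineage were measured, 7 with a higher and 8 with a lower mean, or 11 with a higher one without Hif1a-/- replicate 2 and 4 without Hif1a-/- replicate 1. Gfi1b, a repressor needed by both red cell and megakaryocyte precursors, read 11.53 and 11.60 on the WT arrays and 11.998 and 11.85 on the Hif1a-/- arrays, a difference of 0.36 (unadjusted limma p 0.0288), or 0.28 without Hif1a-/- replicate 1. Erg, an ETS factor of stem cells and megakaryocytes, read 10.11 and 10.48 on the WT arrays and 9.76 and 9.83 on the Hif1a-/- arrays, a difference of -0.50 (unadjusted limma p 0.0174), or -0.32 without WT replicate 2. Zfpm1 differed by 0.40 (unadjusted limma p 0.0519), or 0.19 without WT replicate 1. The other main regulators differed by less: Fli1, an ETS activator of Gp9 and Itga2b, by -0.11, Nfe2, which drives platelet release, by -0.08, Gata2 by -0.03 and Gata1 by 0.12. Gata1 differed by -0.010 without Hif1a-/- replicate 1, Gata2 by 0.15 without WT replicate 1 and by 0.022 without Hif1a-/- replicate 2, and Nfe2 by 0.00087 without Hif1a-/- replicate 2.

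The list of cytokine signalling genes showed no call in its 7 measured genes. Jak2, a kinase of cytokine receptors, differed by -0.26, Sh2b3, an inhibitor of its signal, by -0.12 and Stat5a by 0.13, with unadjusted limma p of 0.302 to 0.387. Without WT replicate 1 these were 0.095 for Jak2, -0.058 for Sh2b3 and 0.0027 for Stat5a, and without WT replicate 2 Jak2 differed by -0.61. Of 19 measured adhesion receptors and their signalling genes, 16 had lower means and 3 higher ones, with a median difference of -0.14. Without WT replicate 1, 13 means were lower and the median was -0.04. Relative to each gene's own mean, the list lay at 0.17 on WT replicate 1. It lay at -0.02 on WT replicate 2 and at -0.09 and -0.07 on the Hif1a-/- arrays. Cd36, a scavenger receptor of platelets that monocytes and other cells also carry, read 8.19 and 8.11 on the WT arrays and 7.49 and 7.51 on the Hif1a-/- arrays. Its groups were well apart, with a 1.57-fold lower level in Hif1a-/- cells, a difference of -0.65 ± 0.12 (SE), an unadjusted limma p of 0.00136 and values from -0.69 to -0.61 with any array left out. Mpig6b, by contrast, differed by 0.20 (unadjusted limma p 0.155).

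The agonist receptors had 8 of 10 lower means and 0 with an unadjusted p under 0.05. The thrombin receptor gene F2rl2 differed by -0.25, the prostaglandin receptor genes Ptger3 and Ptgir by -0.22 and -0.28, with unadjusted limma p of 0.196 to 0.220. Without WT replicate 1 they differed by -0.031 for F2rl2, -0.043 for Ptger3 and 0.021 for Ptgir, and 6 of 10 means were lower. The list lay at 0.19 on WT replicate 1, relative to each gene's own mean, and at -0.06, -0.04 and -0.08 on the other arrays. In the alpha granule cargo list, 12 of 16 means were lower, or 7 without WT replicate 2 and 8 without Hif1a-/- replicate 1. Mmrn1, a multimerin that binds coagulation factor V, differed by -0.47 (unadjusted limma p 0.0871), or -0.17 without Hif1a-/- replicate 1, while Pdgfb, a growth factor, differed by 0.20 and Srgn, the granule proteoglycan, by -0.16. All 26 genes of granule formation and release were measured and 19 had lower means. After Rab27a, the smallest p values there were those of Slc18a2, the amine carrier of dense granules, and Hps3, of the Hermansky-Pudlak complexes, with -0.29 and -0.20. Slc18a2 differed by -0.090 without WT replicate 1 and by -0.48 without WT replicate 2, and Rab27a by -0.15 without WT replicate 1. Of the 26 means, 14 were lower without WT replicate 2.

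In the list of the platelet skeleton, 11 of 15 means were lower, with -0.26 for Cdc42, 0.15 for Wasf1 and -0.19 for Myh9, the platelet myosin. That count rested on WT replicate 1, without which 5 of 15 means were lower, Myh9 differed by 0.0014 and Cdc42 by -0.15. Relative to each gene's own mean, the list lay at 0.14 on WT replicate 1 and at -0.08, -0.03 and -0.04 on the other arrays. Tubb1, the tubulin of the platelet ring and a marker of late megakaryocytes, read 9.10 and 9.04 on the WT arrays and 9.05 and 9.13 on the Hif1a-/- arrays, a difference of 0.02 that turned to -0.0078 without WT replicate 2 and to -0.017 without Hif1a-/- replicate 2. Of 3 eicosanoid genes measured, Pla2g4a and Tbxas1, the thromboxane synthase, differed by -0.15 and -0.09 and Alox12 by 0.0076, or by -0.11 without WT replicate 2. In both lists 0 genes reached an unadjusted limma p under 0.05.

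Markers of other cells moved with the arrays, and their part in the members' values was not tested. The erythroid list, whose cells share a progenitor with megakaryocytes, had 16 of 16 means higher in Hif1a-/- cells. That count was 14 without WT replicate 2 and 13 without Hif1a-/- replicate 2. The median difference was 0.55, and 9 genes had a higher mean with an unadjusted limma p under 0.05, which 0.697% of all genes met. As the list was chosen with earlier results of these data known, that count is a description and not a test. Among the 9 genes, Sptb differed by 0.69 and Kel by 0.53, or by 0.46 and 0.40 without Hif1a-/- replicate 1. The listed globin genes were not among those measured. On the log2 scale, the mean level of the erythroid list ran from 9.67 to 9.85 on the WT arrays and from 10.06 to 10.37 on the Hif1a-/- arrays. It was highest on Hif1a-/- replicate 1, on which Itga2b, Ppbp and Rab27b were lowest. Pf4, Gp9 and Gp5 were lowest on WT replicate 1, and Vwf and Treml1 on WT replicate 2. The mast cell and basophil list, beside Rab27b, had 15 of 16 means lower, or 11 without WT replicate 1, with levels of 10.30 and 10.32 on the WT arrays and of 9.55 and 10.06 on the Hif1a-/- arrays; Mcpt4 and Mcpt1, mast cell proteases, differed by -1.30 and -1.57, the latter by -0.90 without Hif1a-/- replicate 1. Between the WT arrays, where Rab27b was 0.55 higher on replicate 2, genes of this list went both ways, among them Tpsab1 by 0.78 and Tpsb2 by 0.52, mast cell tryptases, and Fcer1a and Ms4a2, chains of the IgE receptor, by -0.67 and -0.49; these 4 were named after their values were seen.

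Neutrophil and monocyte genes had a mean level of 12.38 on WT replicate 1, 11.31 on WT replicate 2 and 11.84 and 11.80 on the Hif1a-/- arrays. The list was not uniform: Elane, Mpo, Prtn3, Ctsg and Csf1r were lower on WT replicate 1 than on WT replicate 2. Pf4, Gp9, Gp5 and Rab27b were lower on WT replicate 1 than on WT replicate 2. Vwf, Treml1, Itga2b and Ppbp were higher there, if only slightly. The mean of the stem cell and sort markers ran opposite to that of the neutrophil and monocyte list. It was 8.84 and 9.47 on the WT arrays and 9.06 and 9.22 on the Hif1a-/- arrays. Lymphoid genes were at 8.63 and 8.10 in WT and 8.36 and 8.15 in Hif1a-/- cells. Endothelial and stromal genes, which matter here because endothelium also makes Vwf, lay between 8.02 and 8.15 on all arrays, with 7 of 13 means higher and 6 lower; Pecam1, which platelets and stem cells also carry, differed by -0.40 (unadjusted limma p 0.0149). RMA gives no value of 0, so no marker can be called absent from these levels.

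**Figure D4:**
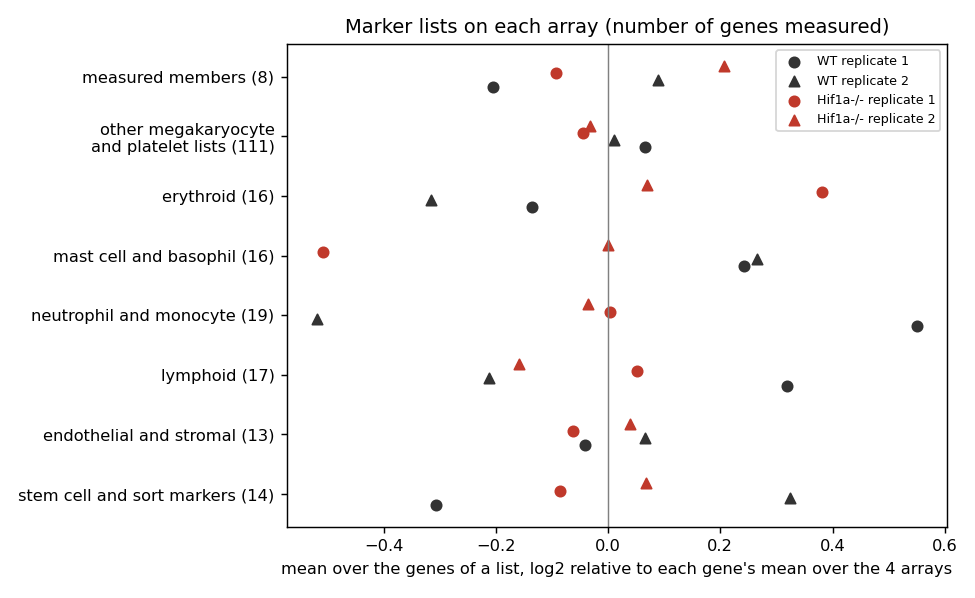
Mean over the genes of each marker list on each array, in log2 units after subtracting the mean of each gene, WT in black and Hif1a-/- in red, circles for replicate 1 and triangles for replicate 2; the number of genes measured stands beside each name. The members lie at -0.20 and 0.09 on the WT arrays and at -0.09 and 0.21 on the Hif1a-/- arrays, with both replicate 2 arrays above both replicate 1 arrays, while erythroid genes lie higher on both Hif1a-/- arrays.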

How the data were processed

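RNA of sorted leukemia stem cells was read on 4 Affymetrix whole-transcript arrays, 2 per genotype. The authors deposited log2 expression values made with Affymetrix Expression Console 1.1 and RMA, per the submitters' processing notes; other settings: not given in the sources used here. RMA scales out total RNA and shrinks differences of dim genes. Of 35556 probe sets, 21789 had 1 gene symbol in the platform annotation, 1621 several, and 12146 were unnamed here. The set with the highest mean stood for each of 19938 genes; 19856 were found by Entrez number in RefSeq's GRCm38.p6 table, and 0 symbols changed. Arrays were grouped by the genotype in the titles.

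All genes were fitted in R 4.3.3 with limma 3.58.1 (lmFit, eBayes), genotype as the only term, with Benjamini-Hochberg adjustment at 0.05. Residual and prior degrees of freedom were 2 and 4.46, and the median standard error was 0.14, so the number of arrays limits precision. An exact permutation test cannot give a two-sided p under 0.333 here. The fit was tested on simulated data. The members and lists were chosen with earlier results of these data known. Genes named were the members, direct partners or regulators, and the listed gene nearest in profile to each member. Up to 3 genes of smallest p per platelet list and up to 2 per other list were also named. Ly6g, Kit, Cd34, Elane, Mpo, Prtn3, Ctsg and Csf1r were named after their values were seen. Promoters came from RefSeq. Alternatives covered scaling, filters on low values, a floor, the variance model, probe set choice, a replicate block and each array left out.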

Additional observations from a re-analysis of the deposited data

How the results depend on the processing

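Directions of the 8 members were the same under all 9 alternatives that kept every array. The filters, floor, variance models, probe set choice and replicate block left every member's difference unchanged, so they could not turn a sign. Only the second quantile normalization and the centred medians changed the differences. Leaving out single arrays turned the sign for Gp9, between -0.25 and 0.75, Itga2b, between -0.22 and 0.12, and Ppbp, between -0.27 and 0.16. The median over the members, 0.16, lay between 0.013 and 0.21 with an array left out. The number of genes past an adjusted p of 0.05 was 0 in the fit of all arrays, where 334 had an unadjusted p under 0.05; it was 1 with a variance trend, 2 with a robust trend, 47 with the replicate block, and 2 to 1442 with an array left out. The labels give the replicate numbers no shared source; deviations of same-numbered arrays correlated at -0.0072 across 19938 genes, and 2 pairs cannot settle whether they pair. The block called 0 members after adjustment; the unadjusted p of Pf4 was 0.0331 with it, and that of Treml1 0.0447 with a floor. Without genes below the 25th percentile of mean level, 216 of 14953 genes had an unadjusted p under 0.05. Without genes below the median, 129 of 9969 had one. Under these filters the unadjusted limma p of Gp5 was 0.0532 and 0.0676, its difference unchanged. Genes with an unadjusted p under 0.05 numbered 627 with a floor, and 94 to 3628 with an array left out. Listed genes beyond the members under that p with a higher mean, 1 in the fit of all arrays, were 2 after a second quantile normalization, 2 with the replicate block, 0 above the median filter and 0 to 10 with an array left out. Those with a lower mean, 2 there, were 1 above the median filter, 3 with the floor, the variance trend or the replicate block, and 1 to 30 with an array left out. Members higher without overlap numbered 3 with all arrays, beside 15.7% of all genes, and 2 after a second quantile normalization, where Vwf overlapped. Members lower in this way numbered 0, beside 9.05% of all genes, and 1 after a second quantile normalization or with centred medians. With an array left out, 3 to 6 were higher and 0 to 3 lower. A group of 1 array separates more readily, and the share of all genes is not given for these alternatives. No result about the members is drawn from these counts. Counts of higher or lower means with an array left out were chosen after seeing the data. The cause of these changes was not tested.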
